A study of Mus musculus with 4 samples.

Results

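The cells described here are granular keratinocytes rich in filaggrin, taken from droplet-based single-cell RNA sequencing of adult mouse epidermis. A barcode, which labels the RNA of 1 droplet, was a member when it held 1500 or more gene UMIs (unique molecular identifiers, each marking 1 captured RNA molecule) and 15% or fewer mitochondrial UMIs. It also had to hold 5 or more UMIs of Flg and Flg2 together, making up 10 or more of every 10000, and fewer than 2 UMIs of Krt79, a keratin of the upper hair follicle. The rule found 1691 members among 80503 barcodes that passed the depth and mitochondrial limits and 109216 barcodes in all. The cells were thus chosen by their UMI counts of Flg, Flg2 and Krt79, so the levels of these genes and every difference between members and other barcodes are descriptions.

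The study deleted ΔNp63, the form of the transcription factor p63 that basal keratinocytes make from an internal promoter of Trp63. Control mice were DNp63fl/fl, and experimental mice were DNp63fl/fl;K14-CreT2, which adds a tamoxifen-dependent Cre recombinase driven by the keratin 14 promoter of basal keratinocytes. All mice, controls included, were given tamoxifen at 200 mg/kg daily by gavage, and cells were taken 1 day or 1 week after ablation. Ages ran from 2 to 17 months and both sexes were used, and the epidermis was freed in 0.25% trypsin at 4 or 37 °C, but the number of animals, their age and sex and the digestion temperature of each library were not given in the sources used here. Kits differed with time, a 3′ kit (version 3.1) at 1 day and a 5′ kit (version 1.1) at 1 week, and each time point was analysed apart. With 1 library in each of the 4 groups there was no replicate check and no test, and all intervals cover counting error only.

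Keratinocytes leave the basal layer, pass through the spinous layer and reach the granular layer, where they fill with keratohyalin granules. Filaggrin, made from the long repeat-rich transcript of Flg, is stored in those granules as a precursor, is cut free as the cell flattens, bundles keratin filaments and is then broken down to moisture-binding amino acids. Filaggrin-2, made from Flg2, is a related protein of the same layer. Loricrin, the small proline-rich (Sprr) proteins and the late cornified envelope (Lce) proteins are cross-linked beneath the membrane into the cornified envelope, and most of these genes lie together in the epidermal differentiation complex. Loss of filaggrin is known for ichthyosis vulgaris and for a raised risk of atopic dermatitis.

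Both genes of the rule, and loricrin beside them, lie in the epidermal differentiation complex on mouse chromosome 3. On build GRCm38, Flg (ENSMUSG00000102439) spans chr3:93273523-93293686 on the + strand, Flg2 (ENSMUSG00000049133) spans chr3:93197278-93221391 on the + strand, and Lor (ENSMUSG00000043165) spans chr3:92080271-92083142 on the - strand. Their RefSeq promoter windows (GRCm38.p6, 250 bases before to 50 bases after the start) were chr3:93273296-93273595, chr3:93197023-93197322 and chr3:92083093-92083392. They are shown 5′ to 3′ on the gene's own strand, because these 3 genes define or lead the cells. Capitals mark matches to TATAAA, the TATA box core, and to TGANTCA, a looser form of the core that AP-1 factors are known to bind.
Flg: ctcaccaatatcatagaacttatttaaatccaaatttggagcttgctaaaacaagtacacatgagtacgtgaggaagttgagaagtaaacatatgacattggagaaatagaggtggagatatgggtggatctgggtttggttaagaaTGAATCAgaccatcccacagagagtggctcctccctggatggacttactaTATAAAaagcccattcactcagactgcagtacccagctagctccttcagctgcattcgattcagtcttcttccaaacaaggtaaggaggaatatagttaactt
Flg2: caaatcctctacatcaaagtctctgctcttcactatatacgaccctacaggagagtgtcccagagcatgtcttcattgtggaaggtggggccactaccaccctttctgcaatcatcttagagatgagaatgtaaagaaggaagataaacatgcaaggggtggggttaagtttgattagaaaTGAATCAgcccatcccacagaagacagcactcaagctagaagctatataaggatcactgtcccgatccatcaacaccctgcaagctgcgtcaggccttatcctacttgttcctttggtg
Lor: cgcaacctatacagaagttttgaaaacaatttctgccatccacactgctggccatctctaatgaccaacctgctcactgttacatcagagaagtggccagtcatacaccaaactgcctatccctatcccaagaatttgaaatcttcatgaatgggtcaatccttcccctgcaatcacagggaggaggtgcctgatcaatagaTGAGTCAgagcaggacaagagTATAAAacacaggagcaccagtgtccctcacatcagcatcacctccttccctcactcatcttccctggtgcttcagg

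Of the motifs in capitals the Flg and Lor windows hold both, and the Flg2 window holds TGANTCA alone. The match to TGANTCA reads TGAATCA in Flg and Flg2 and TGAGTCA in Lor. The first base of TATAAA lies at -53 in Flg and at -27 in Lor, counted from the RefSeq start on which each window is built, which for Flg lies downstream of the start of the gene span given above and for Lor is the same base. The Hrnr and Lce1m windows hold TATAAA at -31 and -29. Searched on both strands, TATAAA occurred in 6 of 26 windows of the genes that led the filaggrin-rich cells (25 of the 30 leading genes had a window) and in 13.62% of all 32851 promoter windows. TGANTCA occurred in 4 of the 26 and in 7.808% of all windows, and CCACCC, a core that Krüppel-like factors are known to bind, in 5 of the 26 and in 31.48%. These are letter matches and no measure of binding.

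Filaggrin-rich barcodes made up a larger share of the experimental than of the control library at both time points. At 1 day they were 287 of 27727 passing barcodes in the control (1.035%, 95% exact binomial interval 0.9193 to 1.161) and 1020 of 30687 in the experimental library (3.324%, 3.126 to 3.531). At 1 week they were 55 of 11466 in the control (0.4797%, 0.3616 to 0.6239) and 329 of 10623 in the experimental library (3.097%, 2.776 to 3.444). The Krt79 limit left out 67, 380, 27 and 675 further barcodes, in the order 1-day control, 1-day experimental, 1-week control and 1-week experimental, which is the order of every run of 4 values below. Without that limit the 1-week shares were 0.7152% in the control and 9.451% in the experimental library. The 1-day share also differed between antibody hashtags, which the labels map to no animal or condition. Of the control barcodes led by hashtags 1, 2 and 3, 0.4134% (0.2847 to 0.5801), 1.433% (1.209 to 1.686) and 1.137% (0.9359 to 1.367) were filaggrin-rich, and of the experimental ones 2.78%, 3.454% and 3.357%. Hashtags are not replicates of a condition here, and these shares are a description of the spread within each library. As an alternative, every passing barcode was first thinned at random to 1500 UMIs and the rule applied to the thinned counts. It then required 2 or more Flg and Flg2 UMIs in place of 5. The shares were 1.259%, 4.97%, 1.151% and 6.467%, under a rule with this lower UMI limit.

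Flg and Flg2 were also seen in barcodes of other cells, where free RNA in the droplets or doublets can carry them. Barcodes with 3 or more UMIs over Cd3d, Cd3e, Cd3g, Ptprc and Cd207, which are genes of T cells and Langerhans cells and not of granular keratinocytes, numbered 1255, 1422, 698 and 329. Of these immune barcodes 6.295%, 18.64%, 19.2% and 24.32% held a UMI of Flg or Flg2, and 6, 23, 0 and 4 met the whole rule. The latter were 0.4781%, 1.617%, 0% and 1.216% of them, against 1.035%, 3.324%, 0.4797% and 3.097% of all passing barcodes. The 0 of 698 allows a share of up to 0.5271% by the exact binomial limit. Summed Flg and Flg2 stood at 52.76, 189.7, 73.32 and 185.4 CPM (UMIs of a gene per 1000000 summed gene UMIs) in immune barcodes, against 4677, 5111, 4375 and 8331 CPM in the members. The members' medians of 9107, 4648, 6626 and 3209 UMIs compare with 4367, 3102, 4752 and 3520 in the immune barcodes. The part of free RNA in the shares was not tested, and no doublet caller was run.

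The libraries held 179736563, 144323031, 88903603 and 68191870 gene UMIs over 33552, 32212, 25039 and 18413 barcodes. The barcodes set beside the members were the remaining passing barcodes with a UMI of Krt1 or Krt10, 24289, 26702, 7487 and 7111 of them, with medians of 5080, 3710, 5148 and 2019 UMIs. They include the filaggrin-rich barcodes that only the Krt79 limit left out (67, 380, 27 and 675), where these held Krt1 or Krt10. The pair of 1-day libraries shared 299 barcode sequences and the 1-week pair 661, but 0 of the members were shared. Mitochondrial UMIs had medians of 2.813%, 3.411%, 1.02% and 1.661% in the members. Among the members 98.95%, 97.94%, 96.36% and 91.19% held a UMI of Krt1 or Krt10. Members at the edge of the rule, under 12 per 10000 or with at most 6 UMIs of Flg and Flg2, numbered 38, 195, 10 and 86, and their medians were 11.53, 17.19, 18.7 and 26.51 per 10000. Barcodes just outside it, with 3 or more such UMIs and 8 or more per 10000, numbered 58, 351, 31 and 163, with medians of 9.242, 13.15, 11.61 and 17.47 per 10000. Lor stood at 640.7, 3454, 1775 and 10735 CPM just inside the rule and at 3893, 1423, 2972 and 5854 CPM just outside it, so in both controls it was higher just outside.

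Flg and Flg2, the genes of the rule, were carried in different proportions by the members of the 4 libraries. Flg stood at 1099, 2320, 653.4 and 3769 CPM of the members' summed UMIs, against 10.35, 95.64, 7.341 and 265.8 CPM in the remaining Krt1 or Krt10 barcodes. Flg2 stood at 3579, 2791, 3722 and 4562 CPM, against 24.07, 59.01, 42.9 and 119.3 CPM. Flg was below Flg2 in the members of all 4 libraries, and its level was higher in the experimental than in the control members, while Flg2 varied less. The median member held 3.422, 10.13, 2.197 and 14.71 Flg UMIs per 10000 and 27.99, 19.02, 35.11 and 19.05 Flg2 UMIs per 10000.

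**Figure D1:**
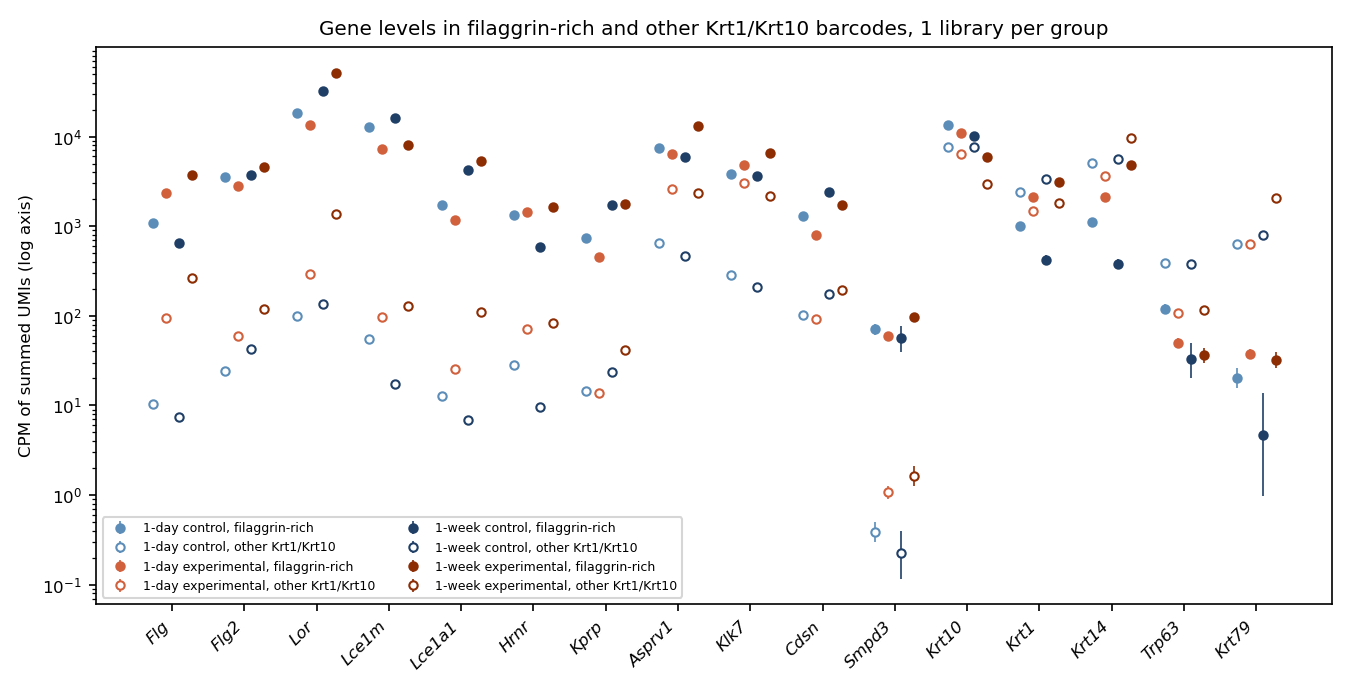
CPM of summed UMIs (log axis) of Flg, Flg2 and other genes in filaggrin-rich and other Krt1 or Krt10 barcodes of the 4 libraries, with bars for the 95% exact Poisson interval. Lor stood between 13461 and 51837 CPM in filaggrin-rich barcodes and between 100.1 and 1364 CPM in the others.

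Loricrin, the main protein of the cornified envelope, was among the genes that set the members furthest apart from the remaining barcodes. Lor stood at 18396, 13461, 31873 and 51837 CPM in the members and at 100.1, 289.6, 135.7 and 1364 CPM in the remaining barcodes, log2 ratios of 7.52, 5.54, 7.88 and 5.25. Hornerin (Hrnr), another S100-fused-type protein of the granular layer, stood at 1342, 1434, 590.8 and 1626 CPM against 28.47, 70.43, 9.519 and 82.58 CPM. Lce1m, a late cornified envelope gene, reached 12878, 7226, 16082 and 8097 CPM against 55.38, 96.44, 17.52 and 129.1 CPM. All 3 genes were higher in the members of every library, and their ratios were smaller in the experimental libraries, where the remaining barcodes held more of each transcript. Those remaining barcodes include filaggrin-rich ones that only the Krt79 limit left out, and their part in these levels was not tested.

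Of 4807 genes with enough counts in all 4 libraries, 329 had a log2 ratio of 1 or more in the members of every library and 350 had one of -1 or less. Of the 30 genes with the highest lowest ratio, 19, Flg2 of the rule among them, lay in the epidermal differentiation complex window, chr3:90511034-93564643 on GRCm38, which held 0.7281% of the 4807 genes. This is a description of genes that rank with the rule. Among the leading genes outside it was Smpd3, which encodes neutral sphingomyelinase 2, at 71.05, 58.85, 56.27 and 96.14 CPM in the members and 0.3886, 1.073, 0.2253 and 1.649 CPM in the remaining barcodes. Aif1l, which encodes an actin-binding protein, stood at 150.3, 123.9, 222 and 518.6 CPM with log2 ratios of 7.77, 5.61, 8.44 and 5.70. Rnf227, a RING finger gene, had ratios of 6.37, 5.36, 6.81 and 5.22.

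The proteins that process filaggrin and later loosen the cornified layer were also abundant. Asprv1, the retroviral-like protease that cuts profilaggrin, stood at 7417, 6433, 5952 and 13003 CPM in the members against 647.7, 2631, 465.3 and 2363 CPM in the remaining barcodes. Klk7, a chymotrypsin-like kallikrein of desquamation, stood at 3853, 4821, 3661 and 6525 CPM against 286.1, 3019, 211.2 and 2176 CPM. Klk7 was thus close to the members' level in the remaining barcodes of the 1-day experimental library, with a log2 ratio of 0.68, but not in the control, with one of 3.75. Cdsn, which encodes corneodesmosin, the glue of cornified cells, stood at 1309, 789.9, 2412 and 1734 CPM against 102.2, 92.24, 173.2 and 195.7 CPM. Casp14, the caspase that completes filaggrin breakdown, was less different, with log2 ratios of 1.75, 1.74, 1.45 and 1.79.

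Basal layer genes were lower in the members, by a margin that depended on the scale in the experimental libraries, and genes of the spinous layer varied. Krt14, the basal layer keratin, stood at 1118, 2103, 379.8 and 4853 CPM in the members against 5021, 3628, 5683 and 9750 CPM, log2 ratios of -2.17, -0.79, -3.90 and -1.01. Trp63 itself stood at 120.2, 50.13, 32.82 and 36.36 CPM against 391.3, 108.4, 383.4 and 115.3 CPM. Of the basal layer list, 16 of 16, 14 of 16, 16 of 16 and 16 of 16 genes with enough counts had a log2 ratio of -1 or less, against 21.7%, 8.17%, 30.8% and 38.5% of all genes. Of the cornified envelope list, 22 of 25, 23 of 26, 21 of 24 and 25 of 28 had one of 1 or more, against 13.3%, 8.41%, 13.6% and 10.4%. Of the cell cycle list, 7 of 11, 5 of 10, 9 of 14 and 21 of 25 had one of -1 or less. Over all genes the ratios had medians of -0.28, -0.23, -0.42 and -0.69, and TMM scaling, which assumes that most genes do not differ, moved them by 0.33, 0.28, 0.34 and 0.80. With it 16, 6, 16 and 14 of the 16 basal layer genes had a ratio of -1 or less, against 13.6%, 2.21%, 22.4% and 14.8% of all genes. The ratios of Krt14 were then -1.83, -0.51, -3.56 and -0.21, and those of Trp63 -1.37, -0.83, -3.21 and -0.86. Cornified envelope genes with a ratio of 1 or more were then 23 of 25, 23 of 26, 21 of 24 and 27 of 28, against 18.8%, 11.6%, 19.3% and 22.2% of all genes, and cell cycle genes at -1 or less 6 of 11, 2 of 10, 9 of 14 and 20 of 25. On the scale of CPM, Krt10, the spinous layer keratin, had ratios of 0.80, 0.78, 0.42 and 1.01. Its partner Krt1 had ratios of -1.26, 0.50, -2.99 and 0.76, so its side of 0 differed between control and experimental libraries, with TMM as well. Krtdap, a secreted differentiation peptide, had ratios of 2.40, 2.12, 2.18 and 2.27. Plin2, which coats lipid droplets, and Mgst1, a glutathione transferase abundant in sebaceous cells, were among the lowest, with ratios of -3.52, -2.44, -3.93 and -3.87 for Plin2 and of -3.49, -2.17, -4.10 and -3.48 for Mgst1. The rule also kept barcodes rich in Krt79 out of the members, and its part in these low ratios was not tested.

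The members were not all alike, and the name granular fitted most of them better than the rest. Members with 20 or more Lor UMIs per 10000, a limit chosen after seeing the data, were 181 of 287, 647 of 1020, 38 of 55 and 295 of 329 (63.07%, 63.43%, 69.09% and 89.67%). Such barcodes were 0.3005%, 2.292%, 1.776% and 30.31% of the remaining barcodes. With barcodes thinned to 1500 UMIs, 80.14%, 81.67%, 70.91% and 93.92% of members and 6.375%, 17.86%, 11.75% and 28.57% of immune barcodes held a Lor UMI (91.64%, 90.78%, 87.27% and 95.74% of members unthinned). Tgm3, a transglutaminase of late differentiation, stood at only 0.7176, 4.106, 6.252 and 21.26 CPM in the members.

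Members with Flg but no Flg2 are described by their counts alone, since both genes chose the members and a missing UMI depends on depth, which differed between the libraries (medians of 9107, 4648, 6626 and 3209 UMIs). They numbered 8 (2.787%) in the 1-day control and 186 (18.24%, 95% exact binomial interval 15.91 to 20.74) in the 1-day experimental library. They numbered 0 of 55 in the 1-week control, which allows a share of up to 6.487% by the exact binomial limit, and 55 (16.72%, 12.85 to 21.2) in the 1-week experimental library. Among members poor in Lor they were 5.66%, 34.05%, 0% and 76.47%, and among members rich in Lor 1.105%, 9.119%, 0% and 9.831%. Both genes were seen together in 63.41%, 56.86%, 56.36% and 62.61% of members.

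**Figure D2:**
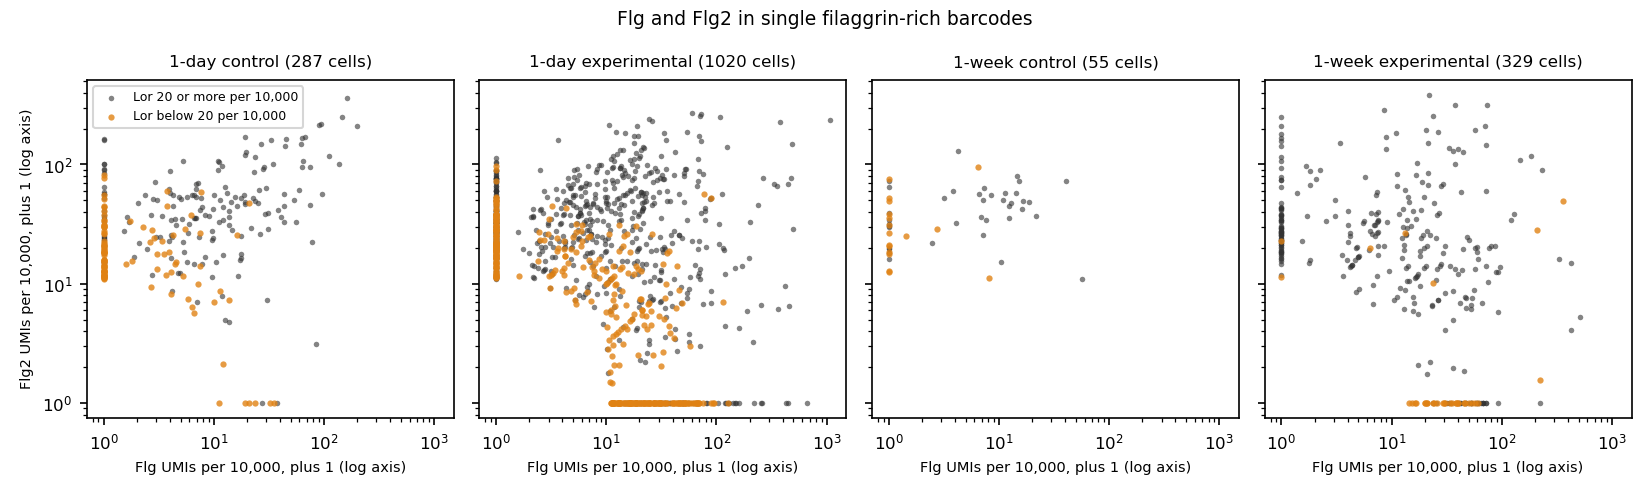
Flg and Flg2 UMIs per 10000, plus 1 (log axes), in each filaggrin-rich barcode of the 4 libraries, with barcodes of fewer than 20 Lor UMIs per 10000 in orange. The 186 and 55 barcodes with Flg and no Flg2 in the 1-day and 1-week experimental libraries lie on the floor of their panels, where the controls hold 8 and 0.

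Lor-poor members of the 1-week experimental library, 34 barcodes, are described first by their summed UMIs, in which deep barcodes weigh most: depth ran from 1503 to 84006 UMIs around a median of 3170, and the 5 deepest gave 67.28% of the sum. The sum held 260.7 CPM of Flg2 and 4874 CPM of Flg, against 5172 and 3612 CPM in the 295 Lor-rich members. Krt14 stood at 20319 CPM in them and at 2662 CPM in the Lor-rich members, and Krt6a, a keratin of wounded and stressed epidermis, at 10960 and 1015 CPM. Krt1 stood at 12591 CPM against 1732 CPM, and Krt17, a keratin of follicles and wounds, at 15454 CPM against 4985 CPM. Lce1m was at 2.483 CPM against 9244 CPM, while Klk7 was alike at 6558 and 6520 CPM. Counted per barcode, the median Lor-poor member held 134.4 Krt14 UMIs per 10000, 48.79 of Krt6a, 24.02 of Krt1 and 84.3 of Krt17, against 38.86, 2.982, 0 and 39.31 in the median Lor-rich member. The median was 28.79 against 12.42 for Flg, 0 against 20.27 for Flg2, 42.3 against 35.31 for Klk7 and 0 in both for Lce1m. The keratins were thus higher in the typical Lor-poor barcode too, by a smaller ratio for Krt14 and Krt17 than in the sums. These 34 barcodes contributed 8183 of the 15750 Krt14 UMIs, 5071 of the 9994 Krt1 UMIs and 4414 of the 7299 Krt6a UMIs summed over all 329 members.

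The same division looked otherwise in the control libraries. In the 1-day control the 106 Lor-poor members held 1158 CPM of Krt14 against 1095 CPM in the 181 Lor-rich ones, 211.5 against 80.57 CPM of Krt6a, and 1826 against 4578 CPM of Flg2. Their Krt10 stood at 19791 against 9702 CPM, and their Krt77, a suprabasal keratin, at 16702 against 8273 CPM. In the 1-week control the 17 Lor-poor members held 41.63 CPM of Krt14 and 16925 CPM of Krt10, against 617.8 and 5339 CPM in the 38 Lor-rich ones. Deep barcodes weigh on these sums: median depths were 14587 and 3002 UMIs, and the 5 deepest gave 53.22% and 41.46%. The median Lor-poor member there held 0 Krt14 UMIs per 10000 and the median Lor-rich one 26.79. Control Lor-poor members were thus rich in the spinous layer keratins Krt10 and Krt77. The 373 Lor-poor members of the 1-day experimental library held both kinds of transcript, with 14143 CPM of Krt10, 3115 CPM of Krt14 and 1494 CPM of Krt6a, against 9340, 1524 and 317.8 CPM in the 647 Lor-rich ones.

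Across single members, rank correlations were taken of UMIs per 10000, which share library and depth. The rule on the sum of Flg and Flg2 shapes the correlation of the pair and, through it, that of each with other genes. Over 287, 1020, 55 and 329 members Spearman's rho of Flg with Flg2 was 0.30, -0.33, 0.34 and -0.41. Flg with Lor gave 0.62, 0.11, 0.71 and -0.24, and Flg2 with Lor gave 0.62, 0.61, 0.46 and 0.75. Lor with Krt10 gave -0.62, -0.41, -0.44 and -0.21, and Krt10 with Krt77 gave 0.91, 0.80, 0.92 and 0.68. Lor with Krt14 gave -0.08, -0.29, 0.03 and -0.61, and Lor with Krt6a gave -0.10, -0.27, -0.12 and -0.61.

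**Figure D3:**
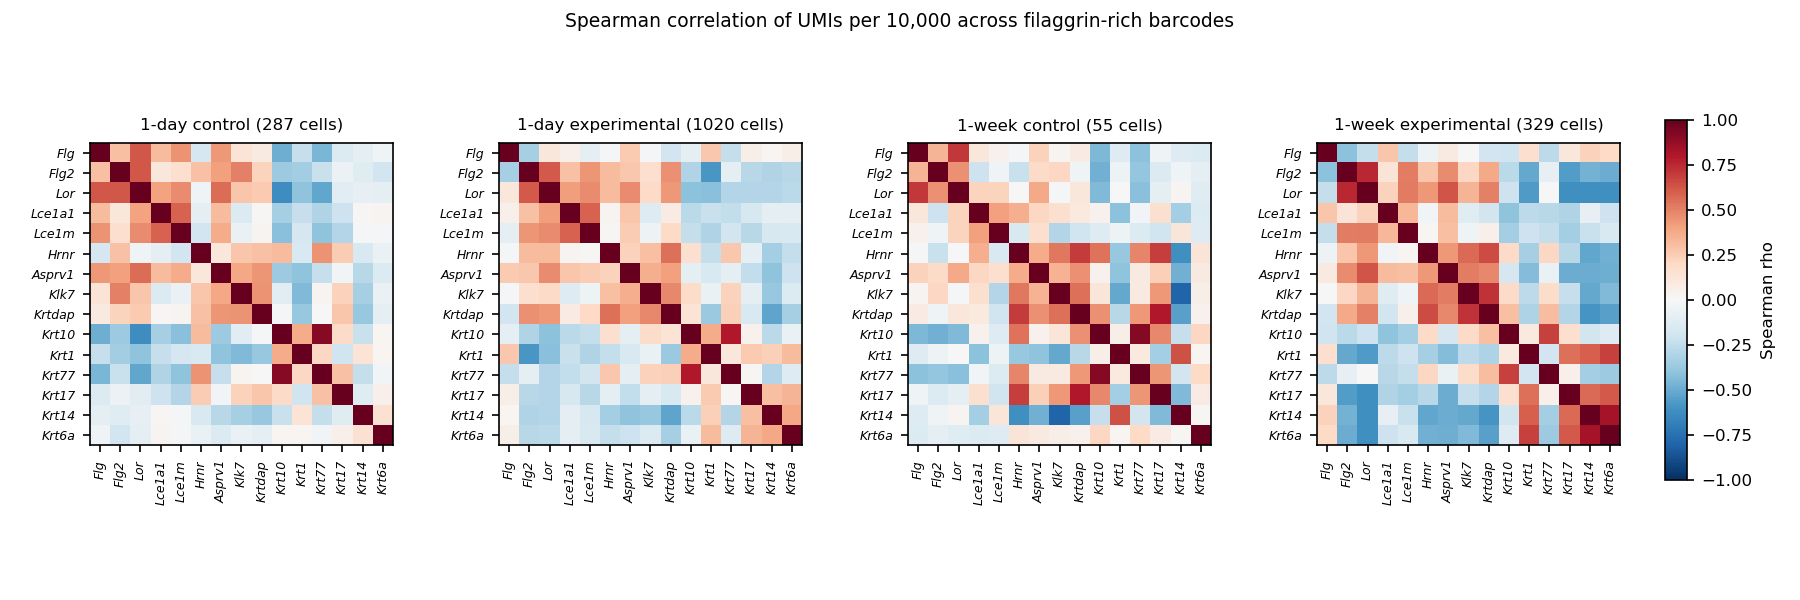
Spearman correlation of UMIs per 10000 between pairs of genes across the 287, 1020, 55 and 329 filaggrin-rich barcodes of the 4 libraries, from -1 (blue) to 1 (red). Flg with Lor was 0.62 and 0.71 in the controls and 0.11 and -0.24 in the experimental libraries.

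Experimental and control members were then compared at each time point by the ratio of their CPM. A gene was counted as higher or lower at a log2 ratio of 1 or more or of -1 or less, among genes with at least 20 CPM in either sum and 30 UMIs over both. At 1 day 192 of 4910 genes (3.91%) were higher in experimental members and 69 (1.41%) lower, around a median ratio of 0.03. At 1 week 337 of 5025 genes (6.71%) were higher and 474 (9.43%) lower, around a median of -0.21. Every list count below is to be read beside these shares of all genes. TMM scaling moved the 1-week median by 0.24 to 0.03 and gave 460 higher and 279 lower, so that 62.25% and not 41.55% of the counted genes were higher. The members' UMIs summed to 2786886, 5845124, 639767 and 3245180, and the 1-week control rests on 55 barcodes.

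Markers of other cells differed between control and experimental members in some lists and were close in others. Summed CPM of 10 Langerhans and myeloid genes was 1288, 2125, 1079 and 2668 in the members and 1810, 2897, 1534 and 2690 in the remaining barcodes. Among them 6 of 7 genes with enough counts were higher in experimental members at 1 day, with a median ratio of 2.12, and 2 of 2 at 1 week, while Cd207, Lyz2, Mfge8 and Csf1r were at 0 in the 1-week control. Summed T cell genes stood at 27.27, 38.66, 20.32 and 33.28 CPM, fibroblast genes at 18.66, 27.54, 4.689 and 37.59 CPM and melanocyte genes at 3.229, 11.29, 1.563 and 11.09 CPM. Upper follicle genes summed to 10800, 7862, 11507 and 10987 CPM in the members, against 8312, 9956, 7017 and 17795 CPM in the remaining barcodes. These sums were higher in the members of both controls and lower in those of both experimental libraries. Of the members' sums Krt17 gave 3426, 2264, 6746 and 6284 CPM and Cst6 gave 5226, 2606, 3340 and 2094 CPM. The upper follicle and sebaceous lists both hold Krt79, which the rule limited in the members, so these comparisons are descriptions. Sebaceous genes summed to 543.6, 622.4, 409.5 and 397.2 CPM, against 1586, 1456, 1624 and 3288 CPM. Inner root sheath genes summed to 9.688, 113.4, 15.63 and 690.3 CPM, of which Tchh, also a member of the S100-fused family, gave 2.153, 85.54, 3.126 and 652 CPM. Of the 10 genes of that list 5, 7, 4 and 4 had UMIs. Krt26, Krt72 and Krt73 were at 0 in all 4 libraries, and Krt25 and Krt71 had UMIs in the 1-day experimental members only. Of the tissue handling stress genes 2 of 15 were higher at 1 day and 0 of 14 at 1 week. The part of other cells' RNA in single ratios was not tested. Without barcodes of other lineages the list medians at 1 day were -0.53 for the cornified envelope, 1.35 for Sprr genes and 2.50 for wound keratins, against -0.56, 1.43 and 2.48 with them.

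Among the S100-fused-type genes, 3 of 5 were higher at 1 day and 4 of 5 at 1 week, and 0 were lower. The list holds both genes of the rule. Flg, given as description, stood 1.08 higher on the log2 scale in experimental members at 1 day (95% exact interval 1.02 to 1.14), and 2.53 higher at 1 week (2.39 to 2.67). Flg2 had ratios of -0.36 (-0.39 to -0.32) and 0.29 (0.23 to 0.36). Hrnr had ratios of 0.10 (0.04 to 0.15) and 1.46 (1.31 to 1.61). Repetin (Rptn), a cornified envelope precursor low in normal back skin, stood at 13.99 CPM in control and 143.5 CPM in experimental members at 1 day, which is 3.36 (2.90 to 3.86) on the log2 scale. Rptn at 1 week had 0 UMIs in control and 649.6 CPM in experimental members, which is 139-fold higher against a floor of 3 UMIs in the control sum. Its lower 95% limit was 6.81 on the log2 scale. Folds against a control sum of 0 use this floor throughout and are not lower limits. Trichohyalin (Tchh), best known from the inner root sheath, had ratios of 5.31 (4.18 to 6.77) from 6 control UMIs and 7.70 (5.85 to 10.75) from 2. After thinning, Rptn was seen in 0.6969%, 6.569%, 0% and 16.72% of members (1.742%, 10%, 0% and 20.67% unthinned) and in 0.07968%, 0.9142%, 0.2865% and 5.167% of immune barcodes.

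Cornified envelope precursors differed in both directions. At 1 day 1 of 26 genes was higher and 4 lower, with a list median of -0.56, and at 1 week 8 of 28 were higher and 2 lower, with a median of 0.39. The 1-day median was -0.13 with the rule on Flg2 alone, an alternative added after seeing the data, and the 1-week median was -0.04 without the Krt79 limit. The ratio of Lor was -0.45 at 1 day (-0.47 to -0.43) and 0.70 at 1 week (0.68 to 0.72), both short of the fold of 2. Involucrin (Ivl), the early scaffold of the envelope, was lower at both times, at 674.9 against 248.8 CPM at 1 day (-1.44, -1.54 to -1.34) and 558 against 139 CPM at 1 week (-2.01, -2.21 to -1.80). Lce1m had ratios of -0.83 and -0.99, and Lce1l, a close relative, ratios of -1.05 and -1.75. Lce3e, of the injury-linked Lce3 group, stood at 0.3588 against 20.7 CPM at 1 day, a ratio of 5.85 (3.34 to 11.17) from 1 control UMI. At 1 week it had 0 control UMIs against 81.66 CPM, 17.4-fold higher against the floor, with a lower limit of 3.81 on the log2 scale. Lce3c of the same group stood at 82.53 against 77.84 CPM at 1 day (-0.08, -0.32 to 0.15) and at 7.815 against 330.3 CPM at 1 week (5.40, 4.17 to 7.03), the latter from 5 control UMIs. The Lce genes are near copies of each other, so reads could be split between them and their single values are uncertain.

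**Figure D4:**
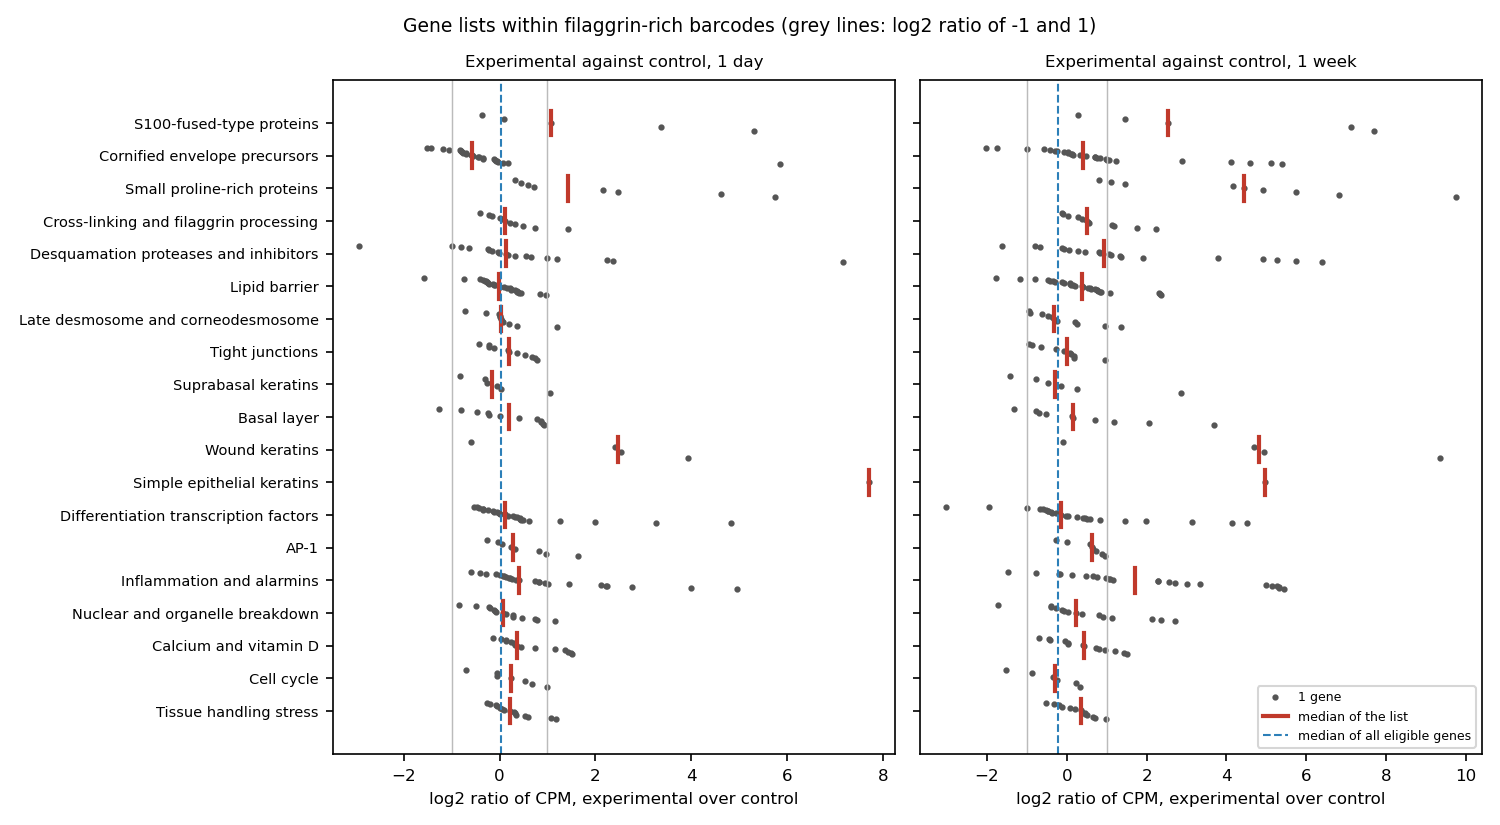
Log2 ratios of CPM, experimental over control, of the genes of each list within filaggrin-rich barcodes at 1 day and 1 week, with red marks for list medians and a dashed line for the median of all eligible genes (0.03 and -0.21). The medians of Sprr genes (1.43 and 4.44) and wound keratins (2.48 and 4.82) lie to the right of that line at both times. The median of cornified envelope genes lies to its left at 1 day (-0.56) and to its right at 1 week (0.39). Single genes can lie on the other side, such as Krt17 at -0.60 and Lce3e at 5.85 at 1 day. A gene with a control sum of 0 is drawn at its ratio to a floor of 3 UMIs, as is Sprr2f, which sets the 1-week Sprr median.

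Small proline-rich proteins, which bridge the envelope and are known to be made in quantity after injury, were higher in most members of the list at 1 week. At 1 day 4 of 8 were higher and 0 lower, and at 1 week 8 of 9 were higher and 0 lower, with medians of 1.43 and 4.44. The 1-week median is the value of Sprr2f, which had 0 control UMIs, so it is a ratio to the floor of 3 UMIs. Sprr1b stood at 324.4 against 442.1 CPM at 1 day, a ratio of 0.45 (0.34 to 0.56). At 1 week it had 1 UMI in control members (1.563 CPM) and 4393 in experimental members (1354 CPM), a ratio of 9.76 (7.28 to 15.06). Of the 4393 UMIs of Sprr1b, 2361 came from the 34 Lor-poor members (5862 CPM), and it stood at 714.9 CPM in the 295 Lor-rich ones. Sprr2d had ratios of 2.47 (2.20 to 2.75) and 5.73 (4.85 to 6.80), and Sprr1a, abundant in all libraries at 8079, 10151, 12823 and 22615 CPM, ratios of 0.33 and 0.82. Sprr2 genes too are close copies. The list's 1-day median was 0.35 when the rule was applied to Flg2 alone, and its 1-week median was then 2.53.

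Enzymes around filaggrin and the envelope differed in few cases at 1 day and in more at 1 week. Casp14 was higher at both times, at 82.53 against 220.5 CPM (1.42, 1.21 to 1.63) and 84.41 against 398.7 CPM (2.24, 1.85 to 2.66). Asprv1 had ratios of -0.21 and 1.13 (1.08 to 1.18), and Blmh, the bleomycin hydrolase that trims filaggrin fragments, 0.50 and 1.18 (0.95 to 1.42). Tgm1, the transglutaminase of the envelope, had 0.08 and 0.39, within the fold of 2. Of 11 and 12 genes in this list 1 and 4 were higher and 0 and 0 lower.

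Among proteases of desquamation and their inhibitors 4 of 19 genes were higher and 2 lower at 1 day, and 10 of 20 were higher and 1 lower at 1 week. Klk6, a trypsin-like kallikrein, stood at 73.92 against 380.8 CPM at 1 day (2.37, 2.16 to 2.58) and at 32.82 against 2764 CPM at 1 week (6.40, 5.78 to 7.09). Klk10 had ratios of 2.25 (1.63 to 2.93) and 5.75 (4.52 to 7.38). Inhibitors in the list lay on both sides. Wfdc12, a protease inhibitor, had 7.16 (4.67 to 12.46) and 5.26 (2.77 to 10.58), each from 1 control UMI. Cst6, cystatin M/E, an inhibitor of cathepsins, stood at 5226 against 2606 CPM at 1 day (just past the fold of 2) and at 3340 against 2094 CPM at 1 week (-0.67), and Spink5, the kallikrein inhibitor LEKTI, had ratios of -0.15 and 0.27. Serpinb12 stood at 41.98 against 5.475 CPM at 1 day (-2.94, -3.55 to -2.36) and, from 4 control UMIs, at 6.252 against 86.28 CPM at 1 week (3.79, 2.41 to 5.67).

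Lipid barrier genes were mostly within the fold of 2, with 0 of 28 higher and 1 lower at 1 day and 4 of 29 higher and 2 lower at 1 week. So were most of all genes, of which 3.91% were higher and 1.41% lower at 1 day and 6.71% and 9.43% at 1 week. Alox12e, an epidermal lipoxygenase gene, was lower at both times, at 75.71 against 25.49 CPM (-1.57, -1.88 to -1.26) and 232.9 against 104.2 CPM (-1.16, -1.44 to -0.87). Alox12b, which oxidises the linoleate of acylceramides, had ratios of 0.38 and 1.09 (0.90 to 1.28), and Elovl7, a fatty acid elongase, 0.85 and 2.36 (1.81 to 2.97). Sptlc3, a subunit of the first enzyme of ceramide synthesis, had -0.75 and -1.78 (-2.15 to -1.40). In the junctional lists few genes passed the fold: Dsg3, the desmoglein of lower layers, had 1.19 (0.90 to 1.49) and 1.35 (0.50 to 2.33), Cdsn -0.73 and -0.48, and the tight junction gene Cldn4 0.75 and 0.97.

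Keratins of wounded epidermis were higher in experimental members at both times, 3 of 4 genes each. Krt6a stood at 128.1 against 746.3 CPM at 1 day (2.54, 2.39 to 2.70) and 87.53 against 2249 CPM at 1 week (4.68, 4.30 to 5.09). Krt16, its partner, stood at 390.4 against 2096 CPM (2.42, 2.33 to 2.52) and 95.35 against 2946 CPM (4.95, 4.59 to 5.34). Krt6b, a close copy of Krt6a, had 3.93 (3.63 to 4.24) at 1 day. At 1 week it had 0 control UMIs against 3058 CPM, 652-fold higher against the floor, with a lower limit of 9.05 on the log2 scale. A minority of members carried the Krt6b sums: 87.55% of members in the 1-day and 60.79% in the 1-week experimental library held no UMI of it. Lor-poor members gave 2631 of its 3033 UMIs at 1 day and 5853 of 9925 at 1 week, where it stood at 14533 CPM in them and at 1433 CPM in the Lor-rich members. Of the Krt16 UMIs at 1 week, 4746 of 9559 came from the 34 Lor-poor members, and with equal weight for every member its ratio was 4.03 and that of Krt6a 5.15. Krt17 had -0.60 and -0.10. After thinning, 12.54%, 29.61%, 7.273% and 53.5% of members held a Krt6a UMI (27.87%, 50.1%, 9.091% and 57.45% unthinned), against 15.62%, 29.89%, 4.441% and 41.64% of immune barcodes. Unthinned, 33.63%, 45.78%, 17.19% and 51.06% of immune barcodes held one. At 1 day the thinned share of members was not above that of the immune barcodes, and the part of free RNA in the ratio was not tested.

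The Krt6a ratio was also described on each side of the Lor division, a limit chosen after seeing the data. The part of free RNA on either side was not tested. At 1 day its ratio was 1.98 (1.73 to 2.24) within Lor-rich and 2.82 (2.62 to 3.03) within Lor-poor members. At 1 week Lor-rich control members were too few to compare, at 38. Krt6a stood at 23.97 CPM in them, from 9 UMIs in 2 barcodes, and at 1015 CPM in Lor-rich experimental members. With the rule on Flg2 alone, the wound keratin medians were 2.21 at 1 day and 2.63 at 1 week.

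Keratins of the normal layers differed less regularly. Krt10 had ratios of -0.27 and -0.78, and Krt77 of -0.30 and -1.42 (-1.47 to -1.38). Krt1 stood at 1014 against 2114 CPM at 1 day (1.06, 1.00 to 1.12) and 422 against 3080 CPM at 1 week (2.87, 2.69 to 3.05). The typical member did not show the 1-week difference. The median member held 0.5677 Krt1 UMIs per 10000 in the 1-week control and 0 in the experimental library, the 90th percentiles were 25.22 and 28.01, and 49.09% and 52.28% of members held no Krt1 UMI. The 34 Lor-poor members gave 5071 of the 9994 experimental UMIs. The ratio also depended on which filaggrin gene chose the cells: with Flg2 alone the Krt1 ratios were 0.03 and -2.04. Krt14 stood at 1118 against 2103 CPM (0.91, 0.85 to 0.97) and 379.8 against 4853 CPM (3.68, 3.49 to 3.86), and with Flg2 alone its ratios were 0.32 and 1.85. The 1-week ratio of Krt14 depended on the weight of deep barcodes: with every member given equal weight, as the mean of CPM per barcode, it was 1.72, and that of Krt1 was 1.17. The median member held 0 Krt14 UMIs per 10000 in the 1-week control and 50.99 in the experimental library, the 75th percentiles were 37.99 and 99.01, and the medians of Lor-rich members were 26.79 and 38.86. Krt5, its partner, had -0.24 and 0.70. Over the basal layer list 0 of 12 genes were higher and 1 lower at 1 day, and 3 of 10 were higher and 1 lower at 1 week.

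Trp63, the gene whose ΔNp63 form was targeted, was low in members of all 4 libraries. It stood at 120.2 against 50.13 CPM at 1 day (-1.26, -1.49 to -1.03), and its ratio was -1.26 within both Lor-rich and Lor-poor members. At 1 week it stood at 32.82 against 36.36 CPM (0.15, -0.53 to 0.89) from 21 and 118 UMIs. In the remaining barcodes its ratios were -1.85 and -1.73. With barcodes thinned to 1500 UMIs, 17.07%, 7.353%, 12.73% and 17.02% of members held a Trp63 UMI, and so did 24.78%, 10.2%, 21.63% and 10.03% of immune barcodes (46.34%, 19.9%, 21.82% and 24.92% of members and 51.87%, 22.57%, 49.28% and 23.4% of immune barcodes unthinned). The members' share was thus below that of the immune barcodes in the first 3 libraries. The thinned intervals overlapped in the 1-day experimental library (5.827 to 9.13 against 8.672 to 11.89) and the 1-week control (5.274 to 24.48 against 18.63 to 24.88). Whether the 1-day ratio reflects expression in the members was not tested, nor was the part of free RNA in it. UMIs are counted per gene, so exons outside the deleted part also count here.

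**Figure D5:**
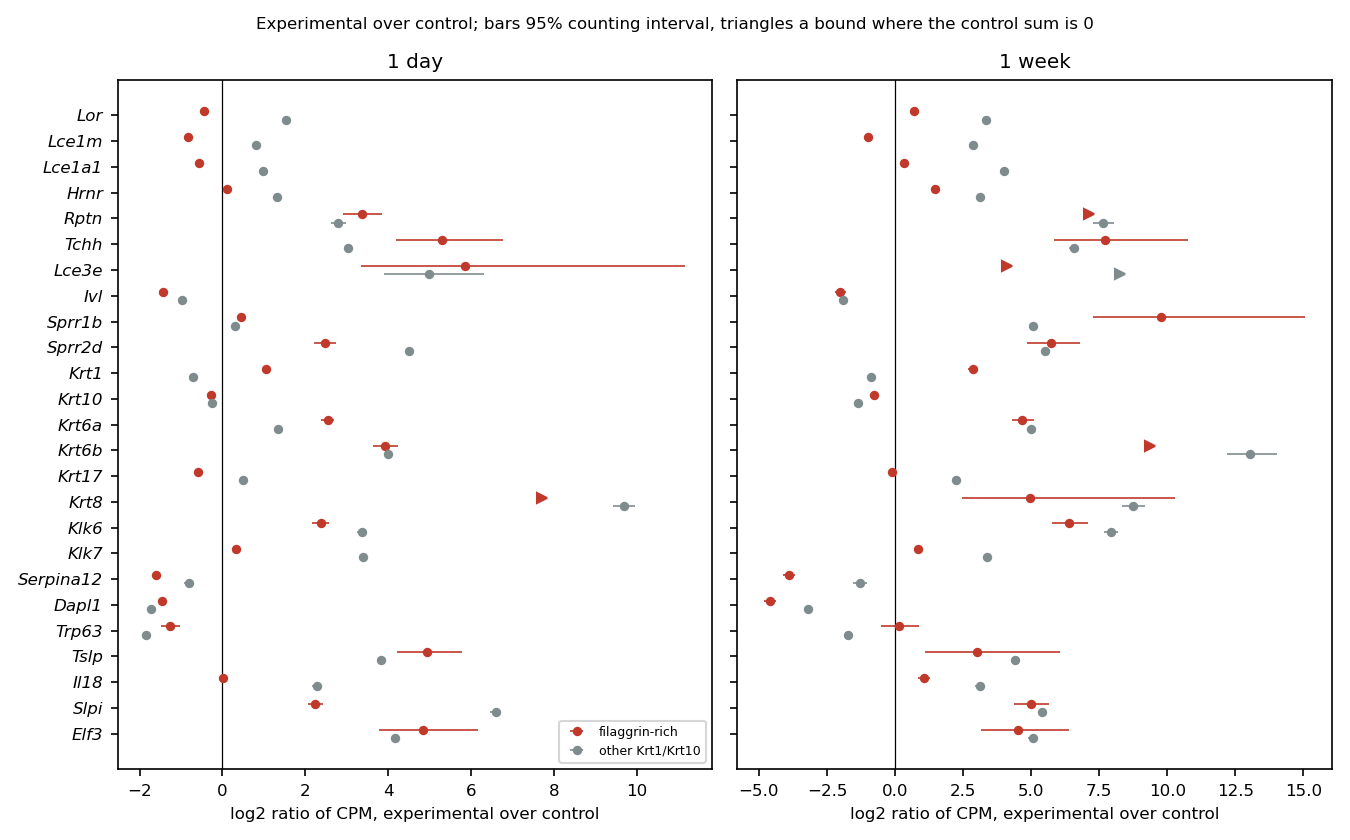
Log2 ratios of CPM, experimental over control, with 95% exact intervals in filaggrin-rich and other Krt1 or Krt10 barcodes at 1 day and 1 week, triangles marking bounds against a control sum of 0. Klk6 and Krt6a lie above 2 in filaggrin-rich barcodes at both times (2.37 and 6.40 for Klk6), and Ivl lies at -1.44 and -2.01.

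Krt8, a keratin of simple epithelia and Merkel cells, was found in members of the experimental libraries. It had 0 UMIs in control and 226.3 CPM in experimental members at 1 day, 210-fold higher against the floor, with a lower limit of 7.42 on the log2 scale. At 1 week it stood at 1.563 against 48.69 CPM (4.96, 2.46 to 10.27) from 1 control UMI. The remaining barcodes held more, at 0.6895 against 567.7 CPM and 0.9199 against 391.3 CPM. After thinning, 0%, 19.31%, 0% and 17.63% of members held a Krt8 UMI (0%, 34.71%, 1.818% and 23.1% unthinned), against 0%, 23.56%, 0% and 9.726% of immune barcodes. The 1-day share of members was thus not above that of immune barcodes. Of the 8 genes of the Merkel cell list, which holds Krt8, 1, 4, 1 and 5 had UMIs in the members. They summed to 2.871, 250.5, 1.563 and 54.54 CPM. Atoh1 and Isl1, which define Merkel cells, were at 0 in members of all 4 libraries. Krt18, Krt20, Sox2 and Piezo2 had UMIs in the 1-week experimental members.

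Transcription factors of differentiation were mostly within the fold of 2, with 4 of 29 genes higher and 0 lower at 1 day and 5 of 27 higher and 2 lower at 1 week. Most of all genes were within it too, with 3.91% higher and 1.41% lower at 1 day and 6.71% and 9.43% at 1 week. Elf3, an ETS factor of epithelial differentiation, stood at 2.512 against 72.03 CPM at 1 day (4.84, 3.79 to 6.17) and 6.252 against 142.4 CPM at 1 week (4.51, 3.14 to 6.39). Its relative Elf5 had 3.27 (2.26 to 4.51) and, from 3 control UMIs, 4.15 (2.59 to 6.44). Klf4, which directs barrier formation, had -0.35 and -0.14. Notch1, a receptor that drives basal cells into differentiation, had 0.11 and -1.94 (-2.79 to -1.08). But its 1-week ratio was 0.24 when barcodes were thinned first, with the lower UMI limit of that alternative. Its target Hes1 had -3.03 (-4.15 to -1.97) at 1 week from 21 and 13 UMIs. The AP-1 gene Fos had 1.64 (1.49 to 1.79) and 0.96 (0.83 to 1.10). After thinning, 0.6969%, 9.216%, 0% and 19.45% of members held an Elf3 UMI (2.091%, 23.14%, 3.636% and 42.86% unthinned) against 0.1594%, 5.907%, 0.5731% and 13.37% of immune barcodes.

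Of the inflammation and alarmin genes 8 of 25 were higher and 0 lower at 1 day, and 15 of 24 were higher and 1 lower at 1 week, with medians of 0.40 and 1.72. Tslp, the cytokine that keratinocytes release to start type 2 inflammation, stood at 5.382 against 166 CPM at 1 day (4.95, 4.22 to 5.79) and, from 2 control UMIs, at 3.126 against 24.96 CPM at 1 week (3.0, 1.10 to 6.07). Thinned, 1.045%, 9.216%, 1.818% and 7.295% of members and 1.116%, 8.65%, 0.5731% and 10.03% of immune barcodes held a Tslp UMI (3.833%, 19.41%, 3.636% and 12.16% of members unthinned), and the intervals of members and immune barcodes overlapped in all 4 libraries. Slpi, an inhibitor of leukocyte proteases, stood at 103.3 against 488.1 CPM (2.24, 2.06 to 2.42) and 34.39 against 1084 CPM (4.98, 4.38 to 5.65), or 3.28 at 1 week with equal weight for every member. Stfa3, a stefin, had 4.00 (3.29 to 4.82) at 1 day. At 1 week it had 0 control UMIs against 186.1 CPM, 39.7-fold higher against the floor, with a lower limit of 5.01 on the log2 scale. Il18 had 0.02 and 1.05 (0.84 to 1.27). Il1f6, the IL-36α gene, and S100a9, a calgranulin, both named here after their values were seen, had 1.46 and 5.27 for Il1f6 and 2.12 and 5.31 for S100a9.

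Genes of organelle breakdown and of the calcium and vitamin D list differed in a few cases. Bnip3, a mitophagy receptor, had ratios of 0.78 (0.47 to 1.10) and 2.72 (2.13 to 3.37), and Dnase1l2, the nuclease that clears nuclear DNA of cornifying cells, -0.22 and 2.36 (1.53 to 3.33). Of 15 breakdown genes 1 was higher at 1 day, Endou at 1.15 (0.91 to 1.40), and 0 were lower. At 1 week 4 of 15 were higher, Bnip3, Dnase1l2, Endou at 2.14 (1.42 to 2.96) and Bnip3l at 1.13 (0.95 to 1.33), and Dnase1l3, another nuclease, was lower at -1.73 (-1.94 to -1.52). S100a6, S100a10 and S100a11, S100 family genes of the differentiation complex, were among 5 of 15 genes of the calcium and vitamin D list that were higher at 1 day, at 1.43, 1.37 and 1.52, and had 1.43, 0.82 and 0.74 at 1 week, when 3 of 14 were higher. Within the window of the complex as a whole, 15 of 49 genes were higher and 4 lower at 1 day, and 25 of 50 were higher and 4 lower at 1 week, with medians of 0.10 and 1.00. Of all genes 3.91% were higher and 1.41% lower at 1 day, and 6.71% and 9.43% at 1 week. The window holds Flg and Flg2, which chose the members, so the counts are a description.

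Among all genes, the highest ratios at 1 day after Krt8 were those of Wfdc12, given above, and Nppb, the B-type natriuretic peptide, at 6.46 (3.97 to 11.77) from 1 control UMI. At 1 week Cstdc5, a stefin-like gene, had 9.69 (7.21 to 14.99) from 1, and Akr1c18, a steroid dehydrogenase, was at 0 against 518.9 CPM, 111-fold higher against the floor. Among the lowest at 1 day after Serpinb12 were Tnnt2, a troponin gene, at -2.59 (-3.23 to -1.99), and Mt4, the metallothionein of stratified epithelia, at -1.94 (-2.27 to -1.63). Lowest at 1 week were Adh6a, an alcohol dehydrogenase, at -6.12 (-8.05 to -4.69), and Krtap3-2, a hair keratin-associated protein, at -4.86 (-5.23 to -4.50). Dapl1, an early differentiation gene, stood at 2331, 847.7, 1599 and 66.56 CPM, ratios of -1.46 and -4.59 (-4.80 to -4.37). Serpina12, the vaspin gene, stood at 1028, 338.7, 1108 and 74.57 CPM, ratios of -1.60 and -3.89 (-4.11 to -3.68).

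The remaining barcodes of the same libraries showed other sizes of difference in several lists, and they hold other shares of cell types and free RNA. They also include filaggrin-rich barcodes that only the Krt79 limit left out. Their counts over all genes were 217 higher and 79 lower of 5365 (4.04% and 1.47%) at 1 day and 387 and 178 of 6271 (6.17% and 2.84%) at 1 week. Cornified envelope medians there were 0.82 and 3.16, against -0.56 and 0.39 in the members. Lor had 1.53 and 3.33 in them, against -0.45 and 0.70, and Flg 3.21 and 5.18, against 1.08 and 2.53. Sprr medians were 4.03 and 3.62 against 1.43 and 4.44, and wound keratin medians 1.57 and 3.80 against 2.48 and 4.82. The value of 4.44 is the ratio of Sprr2f to the floor of 3 UMIs, from a control sum of 0. Basal layer medians were -0.65 and -0.81 against 0.20 and 0.14. Each of these list medians covers the genes with enough counts in its own comparison, so members and remaining barcodes can rest on different genes. The difference between members and remaining barcodes in these ratios has no replicate check.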

How the data were processed

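Whole-number UMI counts per gene and barcode, for 32285 genes, were deposited as 1 matrix per library; per the file headers they were written by Cell Ranger 5.0.1. The submitters' processing notes also list Seurat and mm10, with no role given. The 4 antibody features of the 1-day matrices are not mapped to samples by the labels and were used in no comparison.

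Members, gene lists and comparisons were chosen with earlier results of these data known. UMIs were summed over the barcodes of a library and divided by their gene total to give CPM, with exact Poisson intervals. Ratios of CPM are given on the log2 scale with 95% exact conditional binomial intervals, and shares with Clopper-Pearson intervals, all for counting error only. With 1 library per group and unknown numbers of animals, no test was run and the names control and experimental stand for single libraries. Experimental and control members were compared where both held 50 or more. The genes named are Trp63, Flg, Flg2, Krt79, Krt1, Krt10 and Lor, of each list up to 4 with the most UMIs and the 2 highest and 2 lowest ratios, and the 10 highest and 10 lowest ratios of all, without mitochondrial, ribosomal protein, Gm and Rik genes; names outside this rule are said to be so where given.

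Other limits on the members, thinning to 1500 UMIs (seed 63), scalings, weightings and filters were tried as alternatives. The alternative that thinned first also lowered the limit on Flg and Flg2 UMIs, so it changed the rule as well as the depth. edgeR 4.0.16 (R 4.3.3) gave the TMM factors only. Positions are from GENCODE M21 on GRCm38, which held 32235 (99.85%) of the gene identifiers. The calculations ran in Python 3.11.15 with numpy 2.4.6, scipy 1.17.1, pandas 2.3.3 and matplotlib 3.10.9, and were tested on simulated data.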

Additional observations from a re-analysis of the deposited data

Results flagged for a closer look

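In filaggrin-rich members 2 genes lay past the fold of 2 in opposite directions at the time points, each against the control library of its own time. Lce1h, a late cornified envelope gene, had a log2 ratio of -1.51 at 1 day and 1.02 at 1 week. Serpinb12, a serine protease inhibitor gene, had -2.94 at 1 day and 3.79 at 1 week, the latter from 4 control UMIs. The difference between the time points was not tested, and the kits differed with the time.

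Antibody hashtags, which no comparison used, gave signal in the members of both 1-day libraries. Hashtags 1, 2 and 3 had medians of 71, 149 and 124 UMIs per member in the 1-day control and of 66, 143 and 72 in the 1-day experimental library, and hashtag 4 had a median of 0 in both. The leading hashtag took a median of 60.6% and 53.38% of a member's antibody UMIs. Of passing barcodes led by hashtags 1, 2 and 3, 33 of 7983, 143 of 9978 and 111 of 9766 were filaggrin-rich in the 1-day control and 146 of 5252, 720 of 20847 and 154 of 4588 in the 1-day experimental library. In the control the share of hashtag 1 lay below those of hashtags 2 and 3 with intervals that did not overlap, so the spread within that library was wider than its counting interval. Whether hashtags mark animals was not given in the sources used here.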

How the results depend on the processing

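No paired analysis was possible because each group was 1 library. Shares of members are again in the order 1-day control, 1-day experimental, 1-week control and 1-week experimental. With 20 or more Flg and Flg2 UMIs per 10000 the shares that moved beyond their interval were 0.7213%, 2.522% and, at 1 week, 2.655% in the experimental library. With 5 or more per 10000 and 3 or more UMIs they were 1.497%, 4.996%, 0.9594% and 4.801%. With 3000 or more UMIs they were 1.173%, 3.784% and, in the 1-week experimental library, 4.433%. Without the Krt79 limit they were 1.277%, 4.562%, 0.7152% and 9.451%. Thinned first, with the lower UMI limit of that alternative, they were 1.259%, 4.97%, 1.151% and 6.467%. Without the deepest barcodes the 1-week control share was 0.3489%, and without Krt8 or Krt18 barcodes the 1-day experimental share was 4.086%. Of the alternatives chosen after seeing the data, Flg2 alone gave 2.079% and 1.676% in the experimental libraries, and 20 or more Lor UMIs per 10000 gave 0.6528% and 2.108% at 1 day and 0.3314% in the 1-week control.

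Counts of genes past the fold between experimental and control members moved with the choice of cells and scale. Thinned first, with the lower UMI limit, 341 were higher and 164 lower at 1 day, and 557 and 311 at 1 week. Without the Krt79 limit 508 were higher and 311 lower at 1 week, with TMM 279 were lower at 1 week, and with Flg2 alone 118 were higher and 44 lower at 1 day. With no filter on low counts 1222 were higher and 1101 lower at 1 day, and 822 and 1863 at 1 week. Of members against remaining barcodes 1962, 893, 2762 and 3057 genes passed the fold. These counts were 591 (1-day experimental, 5 or more per 10000), 1650 (1-week experimental, no Krt79 limit), 437, 1228 and 345 (thinned first, without the 1-day control), 1194 (1-week experimental, mean of CPM per cell) and 5755, 4309, 4955 and 7743 (no filter).

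Of 119 list medians and named genes past the fold, 1614 of 1620 alternative values kept their sign. For single genes, TMM and the other changes of the totals shift all ratios of a comparison alike, and dropping the filter leaves a ratio unchanged. Those alternatives could hardly change the sign of a gene past the fold, so the count is no measure of robustness. The 6 reversals were all at 1 week. Thinned first, with the lower UMI limit, Calm5 had -0.56, Degs2 -0.38, Notch1 0.24 and Rrm2 0.87. With Flg2 alone Krt1 had -2.04, and with the mean of CPM per cell Rrm2 had 1.10. The cause was not tested. Limits that left 45 (20 or more per 10000), 33 (3000 UMIs), 38 (without the deepest barcodes) and 38 (Lor-rich) control members at 1 week gave no 1-week ratio there. Control sums of 0 to 6 UMIs limit many 1-week ratios.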
